A study of Homo sapiens with 18 samples.

Results

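The 43 genes described here encode the proteins that license origins of DNA replication, unwind and copy DNA, and make deoxynucleotides, together with chromatin, ubiquitin ligase and E2F factors that act with them. They were taken as a fixed list of symbols that was chosen with earlier results of these data known. Each was read from whichever of its single-gene probe sets had the highest mean on the 18 arrays. They are 43 of the 19775 genes with such a probe set. All 43 were found and all passed the filter on low values (a log2 value over 4 on at least 3 arrays), as did 12159 genes in all. Total RNA of 2 human prostate cancer cell lines, 22Rv1 and LNCaP, was hybridised to Affymetrix U133 Plus 2.0 arrays after 3′ in vitro transcription labelling, in 6 groups of 3 arrays. 22Rv1 and LNCaP overexpression cells had been transduced with a lentivirus carrying the full-length cDNA of ONECUT2 (also called OC2, a homeodomain transcription factor) in pLenti-C-Myc-DDK-IRES-Puro and selected on puromycin as stable lines. Their controls were 22Rv1 and LNCaP cells whose treatment label reads vehicle, and the labels do not say whether these carried an empty vector or had been selected. 22Rv1 ONECUT2 shRNA cells carried a pLKO1 short hairpin vector against ONECUT2, and 22Rv1 scramble cells a non-target hairpin. The protocol names 2 ONECUT2 hairpin clones, and the titles of the shRNA arrays carry the ending of 1 of them. Whether a line was 1 clone or a mixed population, and whether the arrays of 1 group stem from different cultures, is not given in the sources used here, so p-values measure the spread between arrays, which may be technical.

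Before S phase, the origin recognition complex, CDC6 and CDT1 load the MCM2 to MCM7 ring onto origins, and CDC45 and the GINS complex, with MCM10, turn that ring into the active helicase. Polymerases, the sliding clamp PCNA and its RFC loader then copy the strands, while ribonucleotide reductase and thymidylate synthase supply the deoxynucleotides. Many of these genes are transcribed at the G1-S transition under E2F factors, and their RNA is low in cells that are not cycling, so in bulk RNA fewer cycling cells and less RNA per cell cannot be told apart.

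The windows of 250 bases before the RefSeq start (GRCh38.p14) of 6 members are shown, because RRM2 and DTL had the largest LNCaP falls with a reading over 4, PCNA and TYMS had much smaller ones, and MCM6 and E2F1 stand for the helicase and the E2F factors. Capitals mark E2F-type octamers (TTTCCCGC, TTTGGCGC, TTTCGCGC or TTTGCCGC, searched on both strands) and CCAAT (also searched on both strands, so ATTGG where it lies on the other strand), and the sequences run 5′ to 3′ toward the start.
RRM2 (chr2:10122489-10122738, plus strand): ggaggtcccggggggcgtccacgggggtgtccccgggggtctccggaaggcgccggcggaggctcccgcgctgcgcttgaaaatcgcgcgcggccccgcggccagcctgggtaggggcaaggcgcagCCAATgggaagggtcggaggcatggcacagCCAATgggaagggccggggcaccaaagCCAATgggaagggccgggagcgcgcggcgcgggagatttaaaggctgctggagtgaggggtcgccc
TYMS (chr18:657403-657652, plus strand): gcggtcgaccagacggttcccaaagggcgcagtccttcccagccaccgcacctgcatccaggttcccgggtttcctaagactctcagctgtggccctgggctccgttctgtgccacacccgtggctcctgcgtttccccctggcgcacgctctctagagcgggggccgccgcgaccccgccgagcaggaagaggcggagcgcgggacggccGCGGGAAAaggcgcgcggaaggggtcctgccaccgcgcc
DTL (chr1:212035498-212035747, plus strand): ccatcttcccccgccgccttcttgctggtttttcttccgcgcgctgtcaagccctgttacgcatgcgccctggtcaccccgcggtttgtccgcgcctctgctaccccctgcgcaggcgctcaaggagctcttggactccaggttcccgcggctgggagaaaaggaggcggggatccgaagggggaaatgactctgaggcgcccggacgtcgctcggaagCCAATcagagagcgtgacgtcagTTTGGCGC
MCM6 (chr2:135876444-135876693, minus strand): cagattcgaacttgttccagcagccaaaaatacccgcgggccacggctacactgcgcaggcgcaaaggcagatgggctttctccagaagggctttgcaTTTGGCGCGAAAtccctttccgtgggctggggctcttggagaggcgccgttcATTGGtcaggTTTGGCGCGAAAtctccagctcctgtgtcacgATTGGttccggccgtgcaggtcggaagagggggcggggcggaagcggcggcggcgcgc
PCNA (chr20:5126623-5126872, minus strand): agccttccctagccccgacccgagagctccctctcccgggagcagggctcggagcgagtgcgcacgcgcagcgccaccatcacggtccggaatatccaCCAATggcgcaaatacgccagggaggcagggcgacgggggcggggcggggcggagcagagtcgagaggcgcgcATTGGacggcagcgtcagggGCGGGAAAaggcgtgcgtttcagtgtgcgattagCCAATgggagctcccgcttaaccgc
E2F1 (chr20:33686386-33686635, minus strand): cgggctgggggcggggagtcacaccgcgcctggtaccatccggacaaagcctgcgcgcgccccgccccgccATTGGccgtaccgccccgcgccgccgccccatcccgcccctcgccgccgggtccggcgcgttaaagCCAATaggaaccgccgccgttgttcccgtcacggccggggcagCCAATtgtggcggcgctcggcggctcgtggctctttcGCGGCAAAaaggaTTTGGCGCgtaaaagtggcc

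DTL, a substrate receptor of a ubiquitin ligase, held TTTGGCGC as the last 8 bases before its start. MCM6, a helicase subunit, held 2 stretches in which TTTGGCGC and a reverse-strand TTTCGCGC overlap. RRM2, the small subunit of ribonucleotide reductase, held 3 CCAAT matches and none of the E2F-type octamers. Windows were available for 37 of the 43 members (49 windows, as some genes have several starts), and an E2F-type octamer lay in 18 of the 49, or 36.7%, against 979 of 35116 windows of all genes, or 2.79%. CCAAT lay in 29 of the 49, or 59.2%, against 32.0% of all windows. A match is a stretch of letters and not a measured binding site.

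The targeted gene was read first. ONECUT2 was 8.59, 8.81 and 8.85 in 22Rv1 overexpression, against 8.23, 8.15 and 8.25 in 22Rv1 control (log2 change 0.54 ± 0.16, standard error, adjusted p = 0.00702 in limma). It was 7.23, 7.31 and 7.28 in LNCaP overexpression, against 6.58, 6.53 and 6.72 in LNCaP control (log2 change 0.66 ± 0.16, adjusted p = 0.00153). The arrays labelled ONECUT2 shRNA read 8.46, 9.0 and 9.12, against 6.63, 6.71 and 7.08 on the scramble arrays, a difference of 2.05 ± 0.16 that goes against their label (adjusted p = 7.33e-08). These values are from the brightest of 5 ONECUT2 probe sets, and the others did not all move alike. The second brightest was also higher in 22Rv1 overexpression (8.28, 8.23 and 8.57) than in 22Rv1 control (7.22, 7.23 and 7.15), and on the shRNA arrays (8.29, 8.69 and 8.73) than on the scramble arrays (6.58, 6.71 and 6.51). The third read lower in 22Rv1 overexpression (4.70, 4.35 and 4.32) than in 22Rv1 control (5.04, 5.48 and 5.75). The fourth read 5.23, 7.17 and 7.43 in LNCaP overexpression, against 2.99, 2.74 and 3.04 in LNCaP control, and 4.78, 4.14 and 4.21 in 22Rv1 overexpression, against 3.05, 3.44 and 3.25 in 22Rv1 control. The fifth was under 4 on every array. Every comparison of these arrays is therefore given by label, with no direction of ONECUT2 read from it. The 3 LNCaP overexpression arrays were less alike (lowest correlation within the group 0.975 over all probe sets) than those of any other group (0.996 or higher). The beta-actin control probe sets, read 3′ minus 5′, differed by 8.06 ± 0.70 in 22Rv1 overexpression, against 4.11 ± 0.41 in 22Rv1 control (SD, n = 3), and by 2.85 ± 0.56 in LNCaP overexpression, against 2.94 ± 0.25 in LNCaP control. The GAPDH control probe sets, read the same way, differed by -0.43 ± 0.13 in 22Rv1 overexpression, against -0.70 ± 0.09 in 22Rv1 control, and by -0.68 ± 0.07 in both LNCaP groups, so the 2 controls moved to very different extents in 22Rv1. The part of RNA quality, as these controls read it, in the 22Rv1 result was not tested. Of 10 luminal prostate markers 8 had a gene-level value, of which 6 in LNCaP overexpression, 8 in LNCaP control, 6 in 22Rv1 overexpression and 7 in 22Rv1 control exceeded 4 on all 3 arrays. TMPRSS2 was under 4 in all 22Rv1 groups, as was FOLH1 in 22Rv1 overexpression. PTPRC, CD3E and LYZ (leukocytes) and PECAM1, CDH5 and KDR (endothelium) were under 4 on every array, while VWF, the fourth endothelial marker, read 4.23, 3.94 and 4.50 in LNCaP control and under 4 on every other array. Of 5 stromal markers COL1A2, COL3A1, DCN and LUM were under 4 in both overexpression groups, whereas the summed level (log2) was 10.6 to 12.0 in LNCaP overexpression, against 7.66 to 8.30 in LNCaP control, and 9.77 to 9.86 in 22Rv1 overexpression, against 8.08 to 8.25 in 22Rv1 control, through COL1A1.

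ONECUT2 overexpression went with lower RNA of the replication genes in both lines. The 43 were chosen with earlier results of these data known, so their counts describe the list and do not test it. In 22Rv1 all 43 were called lower (limma, adjusted p under 0.05 over 12159 genes) and none higher, where 24.3% of all genes tested were called lower and 36.5% higher. The median change was -1.85 on the log2 scale (range -3.31 to -0.63), against 0.10 over all genes, and 40 of the 43 fell more than 2-fold. In LNCaP 42 were called lower and none higher, where 28.0% of all genes were called lower and 34.1% higher. The median change there was -2.86 (range -8.56 to -0.49), against 0.08 over all genes, and 28 genes fell more than 4-fold, against 19 in 22Rv1. The 3 overexpression arrays lay below the 3 control arrays for all 43 genes in 22Rv1, where the same held for 32.0% of all genes tested, and for 42 in LNCaP, where it held for 26.2%. Over the 6 groups, 40 genes had their lowest mean in LNCaP overexpression and 3 in 22Rv1 overexpression, and for 41 the overexpression groups were the 2 lowest. MKI67, a proliferation marker outside the list, changed by -3.57 ± 0.16 in 22Rv1 and -4.93 ± 0.16 in LNCaP.

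**Figure D1:**
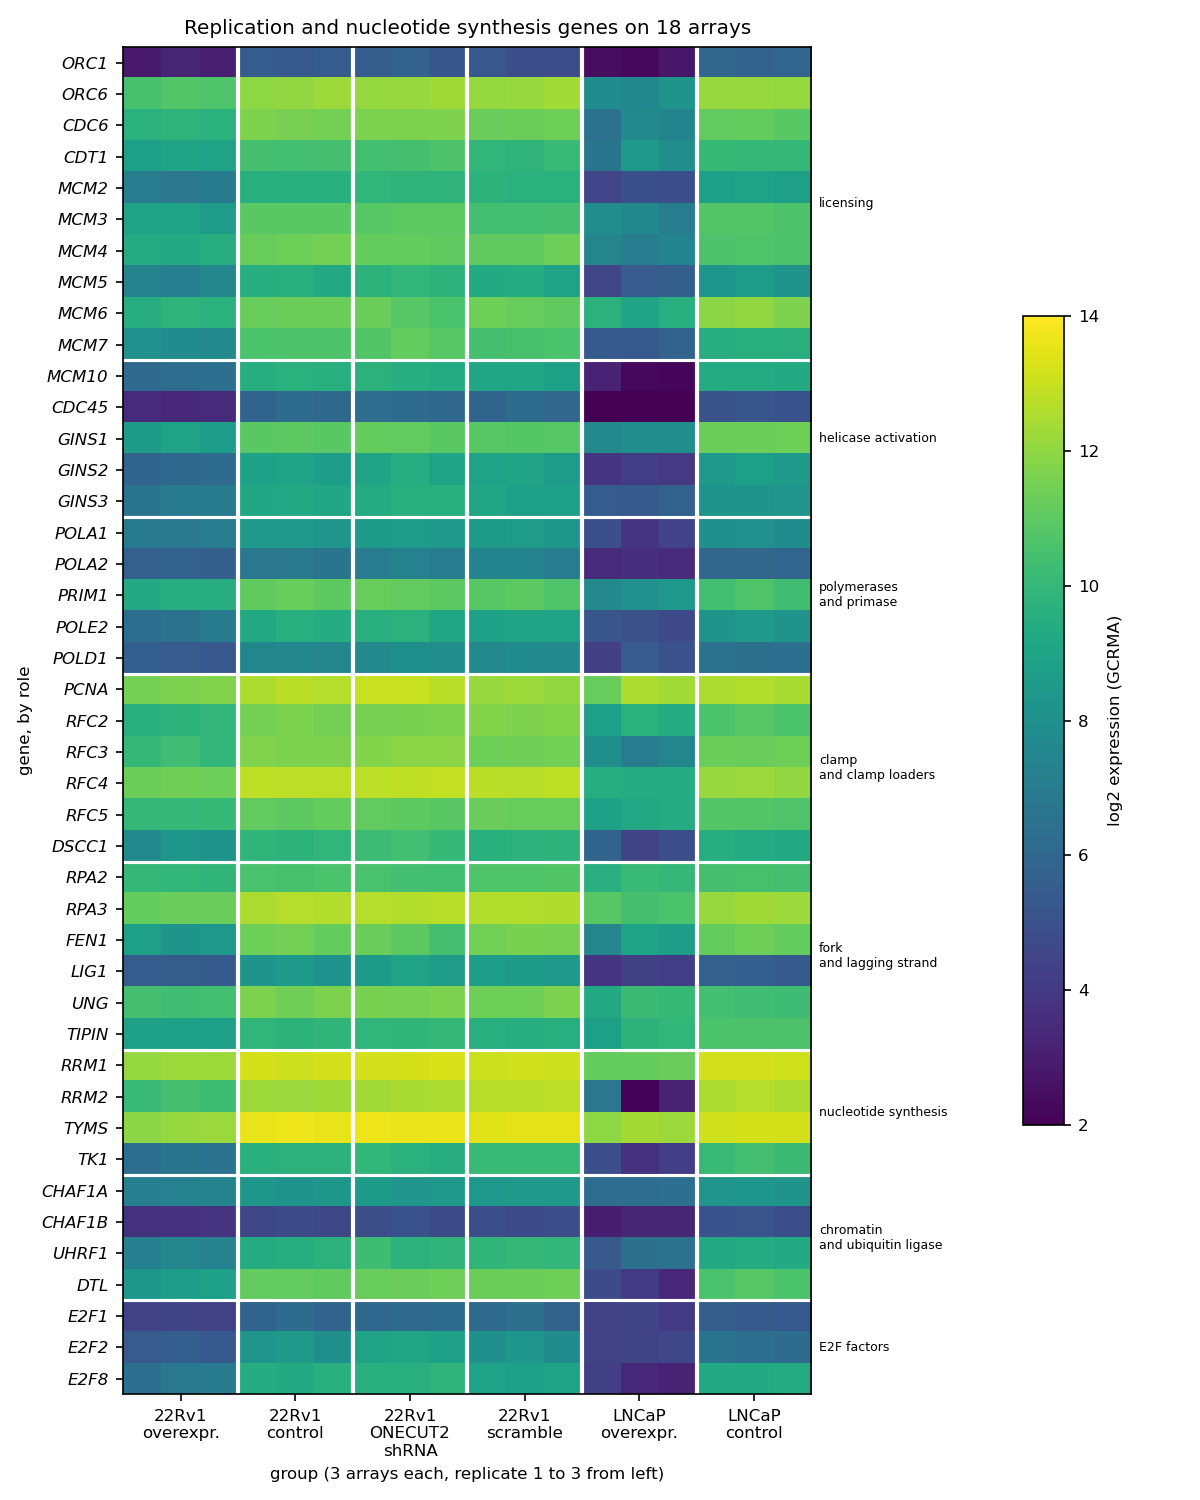
Log2 expression (colour, GCRMA) of the 43 genes (rows, by role) on the 18 arrays (columns, 3 per group in replicate order, overexpression left of control and shRNA left of scramble). The LNCaP overexpression columns are darkest for most genes and the 22Rv1 overexpression columns next, while the 4 other groups are alike in most rows. On LNCaP overexpression replicates 2 and 3, PCNA, UNG and RPA2 stay near their LNCaP control colour. TYMS, RRM1 and RPA3 are also bright there.

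The 10 licensing genes fell in both lines, with a median log2 change of -2.03 in 22Rv1 and -3.37 in LNCaP. ORC6, the smallest subunit of the origin recognition complex, read 10.49, 10.80 and 10.69 in 22Rv1 overexpression, against 11.97, 12.05 and 12.24 in 22Rv1 control (log2 change -1.42 ± 0.13, adjusted p = 9.69e-08). It read 7.84, 7.59 and 8.21 in LNCaP overexpression, against 12.14, 12.16 and 12.09 in LNCaP control (log2 change -4.25 ± 0.13, adjusted p = 1.24e-13). That was the smallest fall among the licensing genes in 22Rv1 and the largest in LNCaP, 2.68-fold and 19.0-fold. ORC1, the largest subunit, read 2.87, 3.26 and 3.04 in 22Rv1 overexpression, against 5.48, 5.42 and 5.51 in 22Rv1 control, and 2.45, 2.27 and 2.78 in LNCaP overexpression, against 5.95, 5.78 and 5.91 in LNCaP control. All its overexpression arrays lay under 4, so its falls are bounds, at least 2.77-fold in 22Rv1 and at least 3.68-fold in LNCaP. CDC6 and CDT1, which bring the helicase ring to the origin complex, changed by -1.85 ± 0.19 and -1.56 ± 0.28 in 22Rv1, and by -3.87 ± 0.19 and -2.31 ± 0.28 in LNCaP. CDT1 read 8.77, 9.0 and 8.89 in 22Rv1 overexpression, against 10.48, 10.39 and 10.47 in 22Rv1 control, and 6.69, 8.48 and 7.90 in LNCaP overexpression, against 10.04, 10.00 and 9.98 in LNCaP control. LNCaP overexpression replicate 1 was the lowest CDT1 array of all, and the other 2 arrays of that group lay below the 22Rv1 overexpression arrays by less.

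All 6 subunits of the MCM2 to MCM7 ring fell in both lines. MCM7 read 8.07, 7.79 and 7.76 in 22Rv1 overexpression, against 10.60, 10.65 and 10.63 in 22Rv1 control (log2 change -2.75 ± 0.14, adjusted p = 1.23e-10), the largest fall of the licensing genes in 22Rv1. It read 5.40, 5.29 and 5.81 in LNCaP overexpression, against 9.48, 9.57 and 9.53 in LNCaP control (log2 change -4.02 ± 0.14, adjusted p = 4.24e-13). MCM7 was already lower in LNCaP control than in 22Rv1 control. MCM6 had the smallest fall of the ring in 22Rv1, with 9.46, 9.79 and 9.67 in 22Rv1 overexpression, against 11.22, 11.29 and 11.31 in 22Rv1 control (log2 change -1.64 ± 0.18, adjusted p = 8.47e-07). The LNCaP values were 9.72, 9.01 and 9.54 in overexpression, against 11.93, 12.05 and 11.68 in control (log2 change -2.46 ± 0.18, adjusted p = 6.06e-09), again the smallest fall of the 6. The other 4 (MCM2, MCM3, MCM4 and MCM5) changed by -2.66, -2.11, -1.96 and -2.09 in 22Rv1. In LNCaP they changed by -4.06, -3.22, -3.37 and -3.16.

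The 5 genes of helicase activation had the lowest median of the role groups in 22Rv1 after the E2F factors, -2.65, and a median of -3.50 in LNCaP. MCM10, which helps the loaded helicase start unwinding, had the largest change of all 43 in 22Rv1. It read 6.09, 6.27 and 6.37 in 22Rv1 overexpression, against 9.46, 9.66 and 9.53 in 22Rv1 control (log2 change -3.31 ± 0.20, adjusted p = 8.86e-10). In LNCaP it read 3.17, 2.26 and 2.16 in overexpression, against 9.40, 9.40 and 9.33 in control, all 3 overexpression arrays under 4, a fall of at least 41.6-fold (adjusted p = 6.87e-14). CDC45, a component of the active helicase, lay under 4 in both overexpression groups, with bounds of at least 4.18-fold in 22Rv1 and at least 2.16-fold in LNCaP. The GINS subunits are the other component. GINS1 read 8.55, 8.93 and 8.73 in 22Rv1 overexpression, against 10.93, 10.99 and 10.92 in 22Rv1 control (log2 change -2.21 ± 0.11, adjusted p = 8.39e-11), and 7.64, 7.95 and 7.86 in LNCaP overexpression, against 11.31, 11.30 and 11.35 in LNCaP control (log2 change -3.50 ± 0.11, adjusted p = 1.2e-13). GINS3 read 6.64, 7.0 and 6.93 in 22Rv1 overexpression, against 9.21, 9.23 and 9.21 in 22Rv1 control (log2 change -2.36 ± 0.12, adjusted p = 1.74e-10), and 5.51, 5.35 and 5.75 in LNCaP overexpression, against 8.23, 8.20 and 8.25 in LNCaP control (log2 change -2.69 ± 0.12, adjusted p = 1.51e-11). GINS2 changed by -2.83 ± 0.16 in 22Rv1 and by -4.59 ± 0.16 in LNCaP. The difference between the lines was called for GINS1 (-1.29 ± 0.15, LNCaP minus 22Rv1) and GINS2 (-1.76 ± 0.23) and not for GINS3 (-0.33 ± 0.17, adjusted p = 0.135).

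The 5 polymerase and primase genes had medians of -1.68 in 22Rv1 and -2.43 in LNCaP. POLE2, an accessory subunit of polymerase epsilon, had their largest change in 22Rv1, with 6.33, 6.46 and 6.96 in 22Rv1 overexpression, against 9.31, 9.54 and 9.41 in 22Rv1 control (log2 change -2.84 ± 0.19, adjusted p = 2.14e-09). The LNCaP values were 5.19, 4.98 and 4.64 in overexpression, against 8.21, 8.44 and 8.21 in control (log2 change -3.35 ± 0.19, adjusted p = 1.81e-10). POLA1, the catalytic subunit of polymerase alpha, had the largest change in LNCaP. It read 4.95, 3.85 and 4.42 in LNCaP overexpression, against 8.04, 8.05 and 7.85 in LNCaP control (log2 change -3.57 ± 0.19, adjusted p = 1.2e-10), and 6.91, 6.83 and 7.07 in 22Rv1 overexpression, against 8.45, 8.40 and 8.25 in 22Rv1 control (log2 change -1.43 ± 0.19, adjusted p = 7.5e-06). POLA2, its accessory subunit, had the smallest change in 22Rv1, with 5.68, 5.71 and 5.64 in 22Rv1 overexpression, against 6.74, 6.81 and 6.64 in 22Rv1 control (log2 change -1.06 ± 0.12, adjusted p = 1.16e-06). Its LNCaP overexpression arrays read 3.47, 3.67 and 3.48, all under 4, against 5.94, 5.95 and 5.90 in LNCaP control, a fall of at least 3.82-fold. PRIM1, the catalytic subunit of primase, changed by -1.68 ± 0.15 in 22Rv1 and -2.43 ± 0.15 in LNCaP. POLD1, the catalytic subunit of polymerase delta, read 5.58, 5.42 and 5.26 in 22Rv1 overexpression, against 7.51, 7.55 and 7.45 in 22Rv1 control (log2 change -2.08 ± 0.20, adjusted p = 2.2e-07). In LNCaP it read 4.28, 5.44 and 5.02 in overexpression, against 6.46, 6.45 and 6.40 in control (log2 change -1.52 ± 0.20, adjusted p = 7.23e-06), the smallest change of the 5 there, and replicate 1 alone lay well below the others.

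Among the clamp and its loaders, the median change was -1.53 in 22Rv1 and -2.15 in LNCaP, and the clamp itself was the single member not called in LNCaP. PCNA read 11.50, 11.62 and 11.72 in 22Rv1 overexpression, against 12.53, 12.74 and 12.68 in 22Rv1 control (log2 change -1.03 ± 0.22, adjusted p = 0.000791), with no overlap of the groups. The LNCaP values were 11.21, 12.54 and 12.34 in overexpression, against 12.55, 12.60 and 12.49 in control (log2 change -0.52 ± 0.22, adjusted p = 0.0554), and replicate 2 lay within the control range. Without LNCaP overexpression replicate 1 the PCNA change was -0.10 (adjusted p = 0.305), and it was -0.77 without replicate 2 (adjusted p = 0.0047) and -0.67 without replicate 3 (adjusted p = 0.0263). The loader subunits fell more. RFC2 read 9.59, 9.75 and 9.89 in 22Rv1 overexpression, against 11.48, 11.65 and 11.49 in 22Rv1 control (log2 change -1.80 ± 0.16, adjusted p = 9.21e-08), the largest change of this role in 22Rv1, and 8.75, 9.64 and 9.43 in LNCaP overexpression, against 10.61, 10.86 and 10.59 in LNCaP control (log2 change -1.41 ± 0.16, adjusted p = 1.47e-06). RFC3, RFC4 and RFC5 changed by -1.58, -1.48 and -1.08 in 22Rv1, and by -3.82, -2.69 and -1.61 in LNCaP. DSCC1, a subunit of the alternative CTF18 loader that acts in sister chromatid cohesion, had the largest change of this role in LNCaP. It read 5.85, 4.46 and 4.88 in LNCaP overexpression, against 9.47, 9.40 and 9.34 in LNCaP control (log2 change -4.34 ± 0.24, adjusted p = 2.26e-10), and 7.75, 8.34 and 8.15 in 22Rv1 overexpression, against 9.83, 9.74 and 9.88 in 22Rv1 control (log2 change -1.74 ± 0.24, adjusted p = 1.23e-05).

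Genes acting at the fork and on the lagging strand changed least in LNCaP, with medians of -1.27 in 22Rv1 and -1.28 in LNCaP, and none of the 6 fell further in LNCaP by the test of the difference. FEN1, the flap endonuclease that trims Okazaki fragments, read 8.83, 8.20 and 8.42 in 22Rv1 overexpression, against 11.35, 11.48 and 11.19 in 22Rv1 control (log2 change -2.86 ± 0.28, adjusted p = 2.5e-07). It read 7.48, 8.94 and 8.66 in LNCaP overexpression, against 11.17, 11.34 and 11.16 in LNCaP control (log2 change -2.86 ± 0.28, adjusted p = 2.31e-07). On this probe set the changes were near equal, with a difference of -0.00 ± 0.40 (adjusted p = 0.994). The other FEN1 probe set, almost as bright, gave a difference of -0.64 ± 0.26 (adjusted p = 0.0619), not called. LIG1, the ligase that joins those fragments, read 5.51, 5.53 and 5.38 in 22Rv1 overexpression, against 8.23, 8.46 and 8.12 in 22Rv1 control (log2 change -2.80 ± 0.15, adjusted p = 3.05e-10), and 3.79, 4.29 and 4.25 in LNCaP overexpression, against 5.66, 5.60 and 5.40 in LNCaP control (log2 change -1.44 ± 0.15, adjusted p = 5.09e-07). LIG1 fell further in 22Rv1 (difference 1.36 ± 0.22, adjusted p = 0.0001), and its LNCaP control arrays read about as low as the 22Rv1 overexpression arrays. UNG, which removes uracil from DNA, read 10.45, 10.32 and 10.38 in 22Rv1 overexpression, against 11.61, 11.42 and 11.63 in 22Rv1 control (log2 change -1.17 ± 0.16, adjusted p = 1.15e-05), and 9.29, 10.20 and 10.03 in LNCaP overexpression, against 10.43, 10.30 and 10.26 in LNCaP control (log2 change -0.49 ± 0.16, adjusted p = 0.0159). It too fell further in 22Rv1 (difference 0.68 ± 0.23, adjusted p = 0.0244). Replicate 1 lay furthest below the LNCaP control arrays, and without it the UNG change in LNCaP was -0.22. The LNCaP call of UNG was lost without LNCaP control replicate 1 (adjusted p = 0.0572), with quantile normalization (0.0668), with only the groups compared (0.146) and with array weights (0.285). The UNG difference between the lines was lost when certain single arrays were left out (adjusted p up to 0.0617). RPA2, of the single-strand binding complex, had the smallest change in 22Rv1, with 10.00, 9.94 and 9.85 in 22Rv1 overexpression, against 10.56, 10.53 and 10.59 in 22Rv1 control (log2 change -0.63 ± 0.12, adjusted p = 0.000192), and 9.50, 10.07 and 9.97 in LNCaP overexpression, against 10.45, 10.49 and 10.44 in LNCaP control (log2 change -0.61 ± 0.12, adjusted p = 0.00023). RPA3, of the same complex, changed by -1.37 ± 0.08 in 22Rv1 and -1.59 ± 0.08 in LNCaP. TIPIN, a fork protection factor, read 8.86, 8.87 and 8.79 in 22Rv1 overexpression, against 9.91, 9.77 and 9.87 in 22Rv1 control (log2 change -1.01 ± 0.19, adjusted p = 0.000207). In LNCaP it read 8.82, 9.77 and 9.92 in overexpression, against 10.59, 10.65 and 10.65 in control (log2 change -1.13 ± 0.19, adjusted p = 7.24e-05).

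The nucleotide synthesis genes held both the largest change in LNCaP and one of the smaller ones. RRM2 read 6.75, 2.14 and 3.17 in LNCaP overexpression, against 12.55, 12.67 and 12.51 in LNCaP control (log2 change -8.56 ± 0.73, adjusted p = 9.17e-08), a fitted fall of 377-fold. Replicates 2 and 3 lay under 4 and replicate 1 did not, so this value has an SD of 2.42 between the LNCaP overexpression arrays. In 22Rv1 RRM2 read 10.11, 10.46 and 10.28 in 22Rv1 overexpression, against 12.22, 12.21 and 12.30 in 22Rv1 control (log2 change -1.96 ± 0.73, adjusted p = 0.0303), a fall with no overlap of the groups whose adjusted p was 0.052 to 0.0731 when any 1 of those 6 arrays was left out. The SD of RRM2 was only 0.175 in 22Rv1 overexpression and 0.0524 in 22Rv1 control. The fit shares each gene's spread over all groups, so the standard error of 0.73 includes the LNCaP overexpression spread. Over all settings tried, the adjusted p of this 22Rv1 fall ranged from 4.65e-10 to 0.0731. RRM1, the large subunit of the same enzyme, read 12.09, 12.26 and 12.26 in 22Rv1 overexpression, against 13.21, 13.10 and 13.17 in 22Rv1 control (log2 change -0.96 ± 0.06, adjusted p = 1.36e-09), and 11.15, 11.16 and 11.27 in LNCaP overexpression, against 13.17, 13.16 and 13.13 in LNCaP control (log2 change -1.96 ± 0.06, adjusted p = 1.24e-13). TK1, which salvages thymidine, read 6.33, 6.68 and 6.58 in 22Rv1 overexpression, against 9.64, 9.73 and 9.73 in 22Rv1 control (log2 change -3.17 ± 0.22, adjusted p = 3.76e-09), the largest change of the 4 in 22Rv1. The LNCaP values were 4.91, 3.70 and 4.24 in overexpression, against 10.08, 10.42 and 10.20 in control (log2 change -5.95 ± 0.22, adjusted p = 9.01e-13). TYMS, which makes thymidylate from deoxyuridylate, read 11.93, 12.16 and 12.19 in 22Rv1 overexpression, against 13.62, 13.71 and 13.61 in 22Rv1 control (log2 change -1.55 ± 0.09, adjusted p = 4.19e-10), and 11.94, 12.37 and 12.18 in LNCaP overexpression, against 13.15, 13.25 and 13.23 in LNCaP control (log2 change -1.04 ± 0.09, adjusted p = 3.31e-08). Of the promoter windows, that of TYMS holds an E2F-type octamer and that of RRM2 none. TYMS had the smallest change of the 4 in LNCaP and fell further in 22Rv1 (difference 0.51 ± 0.12, adjusted p = 0.00324). Its other probe set that passed the filter gave a larger difference the same way, 2.54 ± 0.29 (adjusted p = 4.23e-06).

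The chromatin and ubiquitin ligase genes had medians of -1.61 in 22Rv1 and -2.60 in LNCaP. DTL, the receptor through which the CRL4 ligase marks CDT1 for destruction on PCNA-bound chromatin, had one of the largest falls of all 43 in LNCaP. It read 4.76, 4.02 and 3.38 in LNCaP overexpression, against 10.57, 10.86 and 10.62 in LNCaP control (log2 change -6.63 ± 0.23, adjusted p = 4.61e-13), a fall of 99.3-fold, and 8.33, 8.73 and 8.75 in 22Rv1 overexpression, against 11.13, 11.12 and 11.07 in 22Rv1 control (log2 change -2.50 ± 0.23, adjusted p = 9.99e-08). UHRF1, which brings DNA methyltransferase to newly copied DNA, changed by -2.17 ± 0.23 in 22Rv1 and -3.24 ± 0.23 in LNCaP. CHAF1A, the large subunit of chromatin assembly factor 1, changed by -1.04 ± 0.10 in 22Rv1 and -1.95 ± 0.10 in LNCaP. CHAF1B, of the same complex, read 3.75, 3.72 and 3.80 in 22Rv1 overexpression, against 4.57, 4.73 and 4.61 in 22Rv1 control, and 2.99, 3.3 and 3.3 in LNCaP overexpression, against 5.01, 5.16 and 4.90 in LNCaP control. Its overexpression arrays were all under 4 and its control arrays not far over it, so its bounds are at least 1.56-fold in 22Rv1 and at least 2.03-fold in LNCaP.

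The 3 E2F factors had a median of -2.77 in 22Rv1 and -1.96 in LNCaP, but they did not move alike. E2F8, an atypical family member that represses transcription, read 6.36, 6.79 and 6.93 in 22Rv1 overexpression, against 9.44, 9.33 and 9.62 in 22Rv1 control (log2 change -2.77 ± 0.21, adjusted p = 1.53e-08), and 4.28, 3.38 and 3.21 in LNCaP overexpression, against 9.32, 9.34 and 9.39 in LNCaP control (log2 change -5.73 ± 0.21, adjusted p = 1.29e-12). Replicates 2 and 3 of E2F8 in LNCaP overexpression lay under 4, and with values under 4 raised to 4 the LNCaP change was -5.26. E2F2, an activator, read 5.44, 5.60 and 5.29 in 22Rv1 overexpression, against 8.26, 8.49 and 7.97 in 22Rv1 control (log2 change -2.80 ± 0.16, adjusted p = 4.02e-10), the largest change of the 3 in 22Rv1, and 4.31, 4.46 and 4.60 in LNCaP overexpression, against 6.62, 6.38 and 6.26 in LNCaP control (log2 change -1.96 ± 0.16, adjusted p = 1.86e-08). E2F2 fell further in 22Rv1 (difference 0.84 ± 0.22, adjusted p = 0.006) and E2F8 fell further in LNCaP (difference -2.96 ± 0.30, adjusted p = 1.27e-06). E2F1, the other activator, read 4.31, 4.48 and 4.32 in 22Rv1 overexpression, against 5.86, 6.18 and 5.83 in 22Rv1 control (log2 change -1.59 ± 0.16, adjusted p = 3.02e-07). In LNCaP it read 4.30, 4.47 and 4.05 in overexpression, against 5.54, 5.42 and 5.32 in control (log2 change -1.15 ± 0.16, adjusted p = 1.05e-05), and no overexpression array reached a control array in either line.

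**Figure D2:**
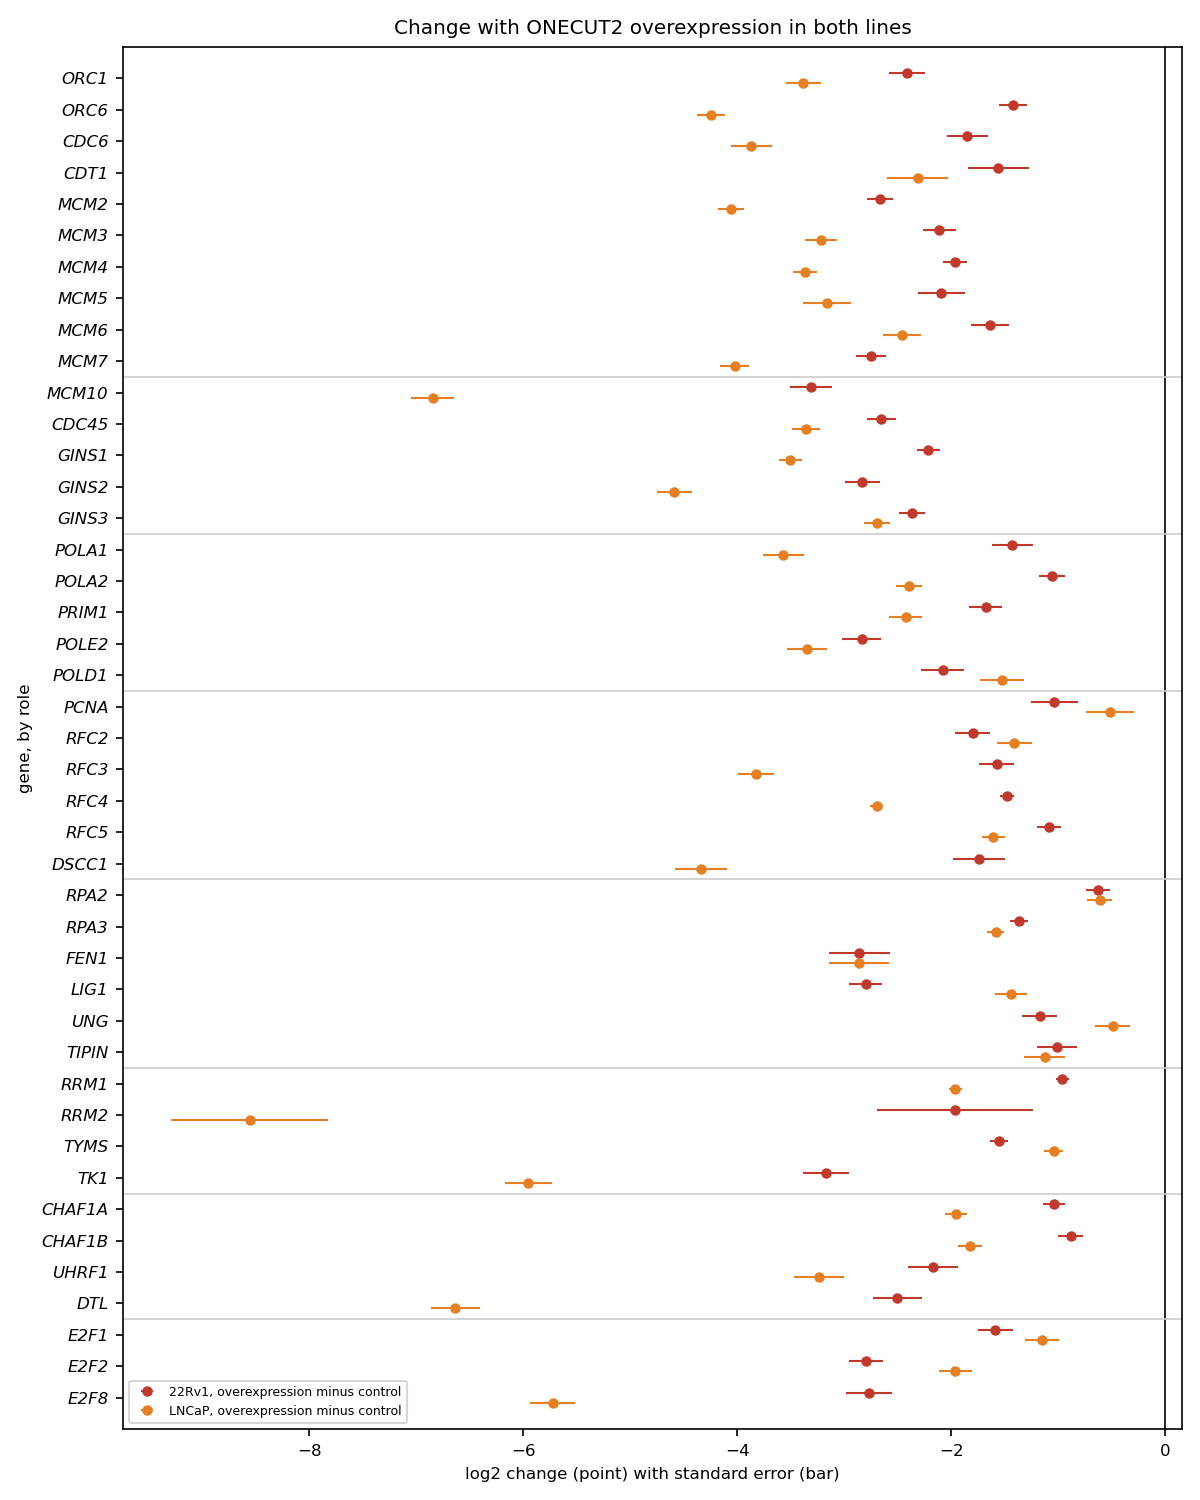
Log2 change, overexpression minus control (horizontal axis, point with standard error), of the 43 genes (vertical axis, by role) in 22Rv1 and LNCaP, from the deposited log2 values in limma. Every point lies below 0; RRM2, MCM10, DTL, TK1 and E2F8 lie below -5 in LNCaP, and RRM2 has the widest bar.

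Whether the response differed in size between the lines was tested as an interaction. It was larger in LNCaP for 28 genes and larger in 22Rv1 for 4, and 11 were not called, where 26.6% of all genes were called lower by this test and 18.1% higher. The median difference was -0.97, against -0.10 over all genes. CDC45, CHAF1B and ORC1 are among the 28 but lay under 4 in both overexpression groups, and without them 25 genes fell further in LNCaP. The difference depended on the probe set more than the falls did. Of 27 other probe sets of the 43 genes, 9 were called lower by this test (33.3%) and 2 higher (7.41%). For 6 of the 28 genes (CDC6, MCM7, MCM10, RRM2, TK1 and DTL) every other probe set tested was called lower too. For 7 (MCM5, MCM6, GINS2, POLA2, RFC5, RRM1 and CHAF1A) none was, and MCM4 and RFC3 had probe sets of both kinds. For RRM1 the other probe set was called the opposite way, with a difference of 1.08 ± 0.22 (adjusted p = 0.000857), since it fell by 3.49 in 22Rv1 and by 2.41 in LNCaP. The remaining 13 of the 28 had no other probe set that passed the filter. The largest differences were those of RRM2 (-6.59 ± 1.04), DTL (-4.13 ± 0.32), ORC6 (-2.82 ± 0.18) and TK1 (-2.78 ± 0.31), leaving aside MCM10 and E2F8. All 3 LNCaP overexpression arrays of MCM10 and 2 of those of E2F8 lay under 4, so the fitted differences of MCM10 (-3.54 ± 0.28) and E2F8 (-2.96 ± 0.30) rest on such readings, and with values under 4 raised to 4 they were -2.07 and -2.49. With that setting RRM2, which had 2 such arrays, and DTL and TK1, which had 1 each, gave -5.70, -3.92 and -2.68, and ORC6 was unaffected. POLA2, under 4 on all 3 LNCaP overexpression arrays, had a fitted difference of -1.34 ± 0.17 and one of -0.88 with that setting. LIG1, E2F2, UNG and TYMS were the 4 that fell further in 22Rv1. LIG1, E2F2 and UNG were also the 3 with the lowest LNCaP control level relative to 22Rv1 control, by -2.72, -1.82 and -1.22. Lagging strand and clamp genes made up most of the 11 without a call: FEN1, RPA2, RPA3, TIPIN, PCNA and RFC2, with CDT1, GINS3, POLE2, POLD1 and E2F1. On the probe sets used, RPA2 (0.02 ± 0.16) and FEN1 differed least of these, and CDT1 (-0.76 ± 0.40, adjusted p = 0.135) most.

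**Figure D3:**
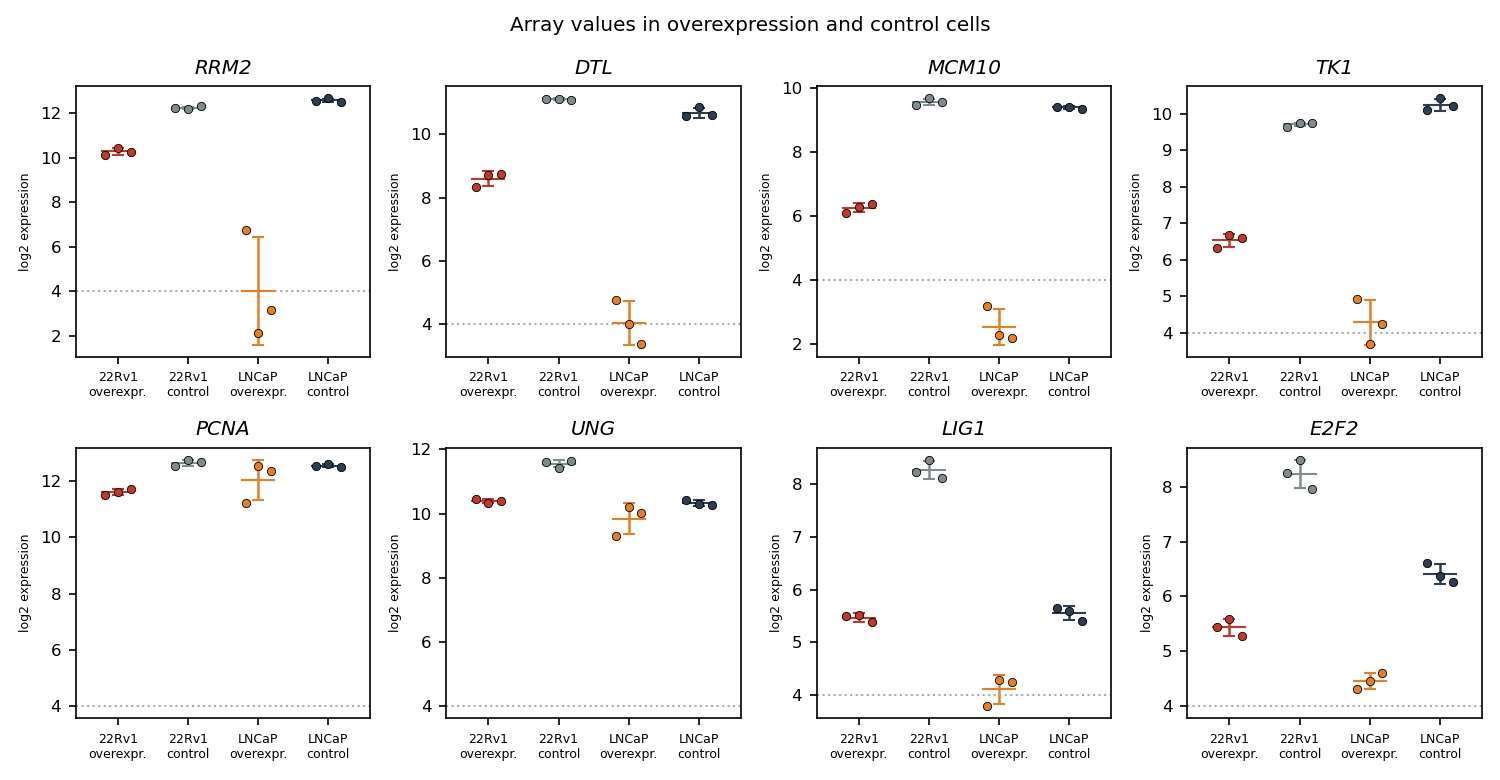
Log2 expression (vertical axis) of 8 genes on each array of the overexpression and control groups (points, replicates 1 to 3 from left), with group mean and SD (bars) and the filter value of 4 (dotted line). RRM2, DTL, MCM10 and TK1 drop further in LNCaP, LIG1 and E2F2 start lower in LNCaP control, and replicate 1 of LNCaP overexpression lies below the others for PCNA and UNG and above them for RRM2.

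The LNCaP overexpression arrays varied among themselves more than those of any other group, with a median SD over the 43 genes of 0.31, against 0.08 in LNCaP control. Replicate 1 lay more than 0.5 below both other arrays for 10 genes (CDC6, CDT1, MCM5, POLD1, PCNA, RFC2, FEN1, UNG, TIPIN and UHRF1), or 23.3%, against 18.2% of all genes tested. It lay more than 0.5 above both for 7 (MCM10, POLA1, DSCC1, RRM2, TK1, DTL and E2F8), or 16.3%, against 18% of all genes. Those 7 include each of the 5 genes with a fitted change below -5, and the 10 include PCNA and UNG. The median change of the 43 against the LNCaP control mean was nevertheless alike on the 3 arrays, -3.03, -2.88 and -2.69. Per array of 22Rv1 overexpression it was -1.96, -1.79 and -1.89. Without LNCaP overexpression replicate 1, 42 genes were again called lower, and the interaction was called for 30 genes lower and 7 higher, POLD1, PCNA and RFC2 joining the 4. Calls also rose over all 12159 genes tested. Without that array the interaction was called lower for 4304 and higher for 3252 of them, against 3235 and 2197 with every array. A set of 66 genes averaged over 9 with overexpression in 22Rv1 but stayed under 4 on each LNCaP control array, and 33, 30 and 6 of them were under 4 on LNCaP overexpression replicates 1, 2 and 3, so replicate 3 stands apart in another way. Without replicate 3, 43 genes were called lower.

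On the arrays labelled ONECUT2 shRNA 8 of the 43 were called higher than on the scramble arrays and none lower, or 18.6% higher, where 13.4% of all genes were called higher and 16.1% lower. The median change was 0.14, against -0.03 over all genes, and 35 genes were not called. E2F2 read 8.91, 9.05 and 8.89 on the arrays labelled ONECUT2 shRNA, against 8.01, 8.30 and 7.82 on the scramble arrays and 8.26, 8.49 and 7.97 in 22Rv1 control (log2 change 0.91 ± 0.16, adjusted p = 0.000395 against scramble). PCNA read 13.00, 13.00 and 12.76 on the arrays labelled shRNA, against 12.13, 12.25 and 12.04 in scramble and 12.53, 12.74 and 12.68 in control (log2 change 0.78 ± 0.22, adjusted p = 0.0146). E2F8 read 9.51, 9.57 and 9.79 in shRNA, against 8.95, 8.76 and 8.96 in scramble and 9.44, 9.33 and 9.62 in control (log2 change 0.73 ± 0.21, adjusted p = 0.0166). These 3 had the largest rises, and their shRNA and scramble arrays did not overlap. The other 5 called were GINS3 (0.61), ORC1 (0.53), MCM3 (0.51), RFC3 (0.47) and MCM7 (0.41). CDT1 (log2 change 0.57 ± 0.28, adjusted p = 0.143), MCM5 (log2 change 0.57 ± 0.22, adjusted p = 0.0656) and MCM10 (log2 change 0.53 ± 0.20, adjusted p = 0.055) had changes of that size and were not called. The 3 most negative changes were not called either. FEN1 read 11.31, 10.96 and 10.48 in shRNA, against 11.45, 11.59 and 11.52 in scramble (log2 change -0.60 ± 0.28, adjusted p = 0.125). TK1 read 9.95, 9.65 and 9.47 in shRNA, against 10.09, 10.11 and 10.10 in scramble (log2 change -0.41 ± 0.22, adjusted p = 0.175), and RRM2 read 12.34, 12.48 and 12.53 in shRNA, against 12.73, 12.71 and 12.81 in scramble (log2 change -0.30 ± 0.73, adjusted p = 0.806). For all 3 the shRNA arrays lay below the scramble arrays. The standard error of RRM2 includes the spread of its LNCaP overexpression arrays, and its adjusted p here ranged from 0.00543 to 0.874 over all settings tried. The count of 8 depends on single arrays and on the model. Without any 1 of the 6 arrays it was 3 to 6, whereas array weights gave 21 higher and 5 lower and only the groups compared gave 17 higher and 5 lower. Calls over all genes rose in these settings too, from 1630 higher and 1963 lower in the model used. They were 3084 higher and 3760 lower with array weights, and 2284 and 2810 with only the groups compared. MKI67 changed by -0.07 ± 0.16 (adjusted p = 0.776).

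The scramble arrays themselves were set against 22Rv1 control, with which they share the cell line, while the labels do not say whether the control cells carried a vector. MCM10 (-0.58 ± 0.20), MCM3 (-0.50 ± 0.15) and ORC1 (-0.49 ± 0.17) were called lower in scramble, and POLA2 (0.56 ± 0.12) higher, where 9.40% of all genes were called lower and 12.5% higher. The count of lower genes was 0 to 1 without any 1 array and 1 to 16 under the alternatives. MCM3 and ORC1 were called lower in scramble than in control and higher in shRNA than in scramble, and MCM3 read 10.89, 10.99 and 10.95 in shRNA, 10.43, 10.39 and 10.48 in scramble and 10.92, 10.94 and 10.94 in control. E2F2 was the 1 gene called between the arrays labelled ONECUT2 shRNA and 22Rv1 control (log2 change 0.71 ± 0.16, adjusted p = 0.0156), where 2.35% of all genes were called higher and 2.11% lower. That share of the 43 is near the background, and the count of higher genes was 0 to 13 under the alternatives and 0 to 1 without any 1 array. The shRNA and scramble comparisons share arrays, so their values are given side by side only.

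**Figure D4:**
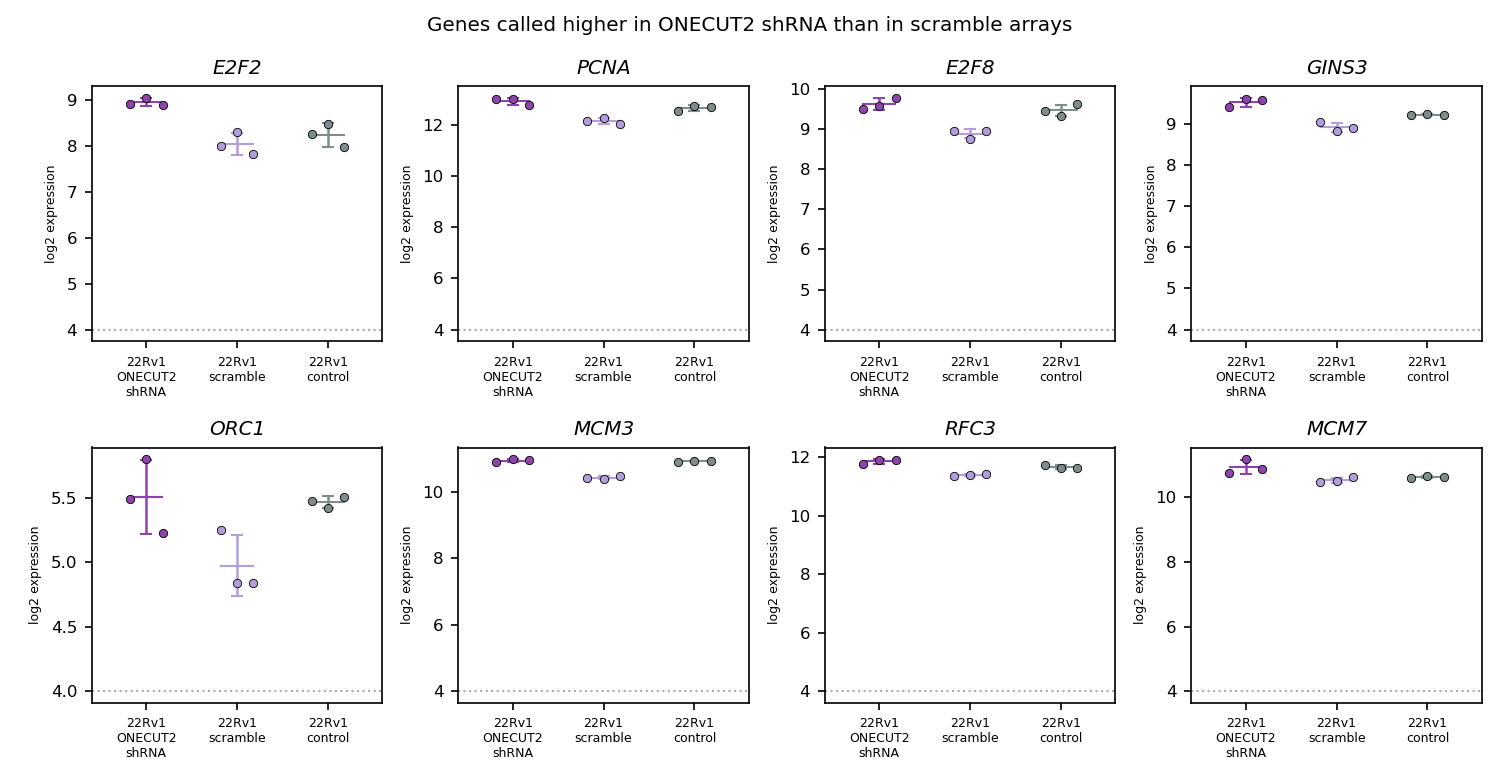
Log2 expression (vertical axis, scaled per panel) of the 8 genes called higher on the arrays labelled ONECUT2 shRNA than on the scramble arrays, with 22Rv1 control beside them (points are arrays, bars the group mean and SD, dotted line the filter value of 4). All scramble arrays lie below both other groups for MCM3, E2F8, PCNA, GINS3 and RFC3, and E2F2 is the gene whose shRNA arrays lie highest above control.

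Between the control cells of the lines, LNCaP control had lower levels than 22Rv1 control for 20 of the 43 genes and higher for 6, where 33.5% of all genes were called lower and 30.2% higher. The median difference was -0.39, against -0.04 over all genes. The 3 lowest relative to 22Rv1 were LIG1 (-2.72 ± 0.15), E2F2 (-1.82 ± 0.16) and UNG (-1.22 ± 0.16), whose values on each array are given with their overexpression results. POLE2 (-1.13), MCM7 (-1.10), MCM5 (-1.07) and POLD1 (-1.06) were also lower by over 1. Higher in LNCaP were TIPIN (0.78 ± 0.19), MCM6 (0.61 ± 0.18), TK1 (0.53 ± 0.22), ORC1 (0.41 ± 0.17), CHAF1B (0.38 ± 0.11) and GINS1 (0.37 ± 0.11). MKI67 was lower in LNCaP control by a change of -1.0 ± 0.16.

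The rest of the machinery was read from another list of 53 replication genes. Of these 36 were called lower and 3 higher in 22Rv1 overexpression (median -0.73), and 44 lower and 2 higher in LNCaP overexpression (median -1.10). Over all genes tested, 24.3% were called lower and 36.5% higher in 22Rv1, and 28.0% lower and 34.1% higher in LNCaP. Complexes were not uniform. Of the origin recognition subunits outside the 43, ORC3 changed by 0.33 ± 0.27 in 22Rv1, which was not called, and by -2.64 ± 0.27 in LNCaP, and ORC5 by -0.57 ± 0.19 in 22Rv1 (not called without overexpression replicate 2, adjusted p = 0.0556) and -2.39 ± 0.19 in LNCaP. The 22Rv1 groups of ORC3 did not overlap (8.52, 8.45 and 8.46 in overexpression, against 8.12, 8.23 and 8.09 in control). Its standard error includes the spread of the LNCaP overexpression arrays, which read 6.59, 4.94 and 5.29. ORC2 was not called in 22Rv1 (-0.06 ± 0.14) and rose in LNCaP (0.50 ± 0.14). RPA1, the large subunit of the single-strand binding complex, was not called in 22Rv1 (-0.02 ± 0.13) and changed by -1.07 ± 0.13 in LNCaP. POLD4, a small subunit of polymerase delta, rose in both lines (0.51 ± 0.14 in 22Rv1 and 1.17 ± 0.14 in LNCaP), while POLD1 fell in both. Among E2F and pocket genes, E2F4, a mostly repressive family member, was called in neither line (-0.10 ± 0.11 in 22Rv1 and -0.04 ± 0.11 in LNCaP), E2F7 fell in both lines (-2.76 ± 0.53 in 22Rv1 and -2.56 ± 0.53 in LNCaP, or -1.55 in LNCaP without overexpression replicate 1), and E2F6 and RBL2 rose in 22Rv1 (0.78 ± 0.12 and 0.45 ± 0.11). Both went the other way in LNCaP. There E2F6 read 6.54, 6.56 and 6.87 in overexpression, against 7.23, 7.31 and 7.20 in control. RBL2 read 10.04, 9.66 and 9.98 in LNCaP overexpression, against 10.67, 10.51 and 10.59 in LNCaP control. TOP2A, the topoisomerase that untangles copied DNA, changed by -2.63 ± 0.17 in 22Rv1 and -6.86 ± 0.17 in LNCaP, ASF1B, a histone chaperone, by -2.82 ± 0.18 in 22Rv1 and -4.28 ± 0.18 in LNCaP, and DBF4, the activator of the CDC7 kinase, by -0.87 ± 0.11 in 22Rv1 and -3.64 ± 0.11 in LNCaP. On the arrays labelled ONECUT2 shRNA 6 of the 53 were lower and 6 higher than on scramble, where 16.1% of all genes were called lower and 13.4% higher.

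**Figure D5:**
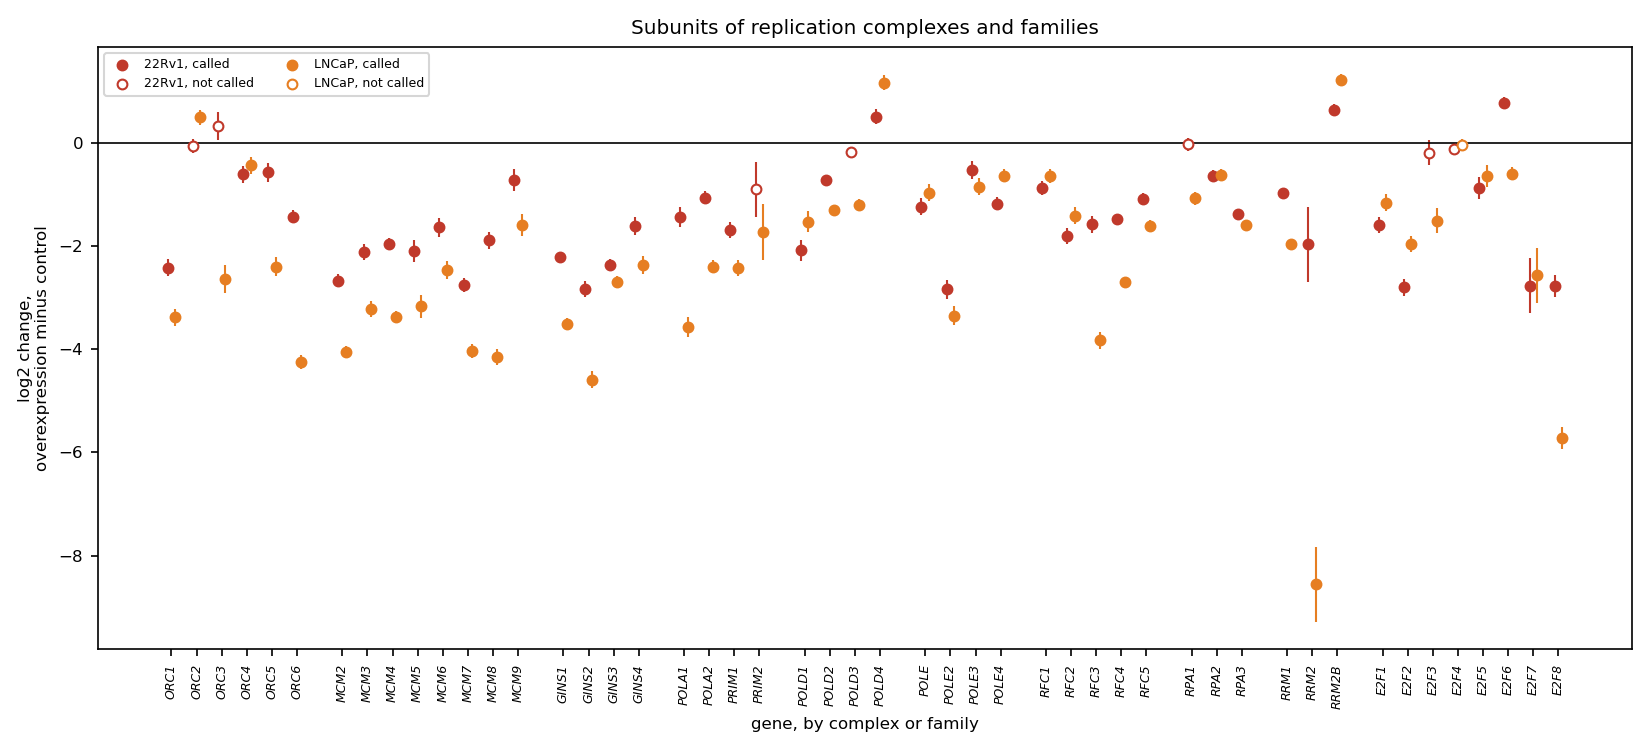
Log2 change, overexpression minus control (vertical axis, point with standard error), of the subunits of replication complexes and families (horizontal axis), members and other genes of the pathway together, in 22Rv1 and LNCaP (filled where called, open where not). MCM and GINS subunits all lie below 0 in both lines, whereas ORC2, POLD4, RRM2B and E2F6 have a called point above 0.

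Of 36 other nucleotide synthesis genes 32 passed the filter, and 20 were called lower in each line, with 4 higher in 22Rv1 (median -0.50) and 5 higher in LNCaP (median -0.69). The shares over all genes were 24.3% lower and 36.5% higher in 22Rv1, and 28.0% lower and 34.1% higher in LNCaP. DCK, which salvages deoxycytidine, changed by -1.09 ± 0.13 in 22Rv1 and -2.25 ± 0.13 in LNCaP, DTYMK, which phosphorylates thymidylate, by -1.34 ± 0.10 in 22Rv1 and -1.74 ± 0.10 in LNCaP, and DUT, which hydrolyses dUTP, by -0.81 ± 0.12 in 22Rv1 and -1.43 ± 0.12 in LNCaP. The opposite was measured for RRM2B, the p53-inducible small subunit of ribonucleotide reductase, which rose by 0.64 ± 0.11 in 22Rv1 and 1.23 ± 0.11 in LNCaP. RRM2B read 11.63, 11.76 and 11.71 in 22Rv1 overexpression, against 11.03, 10.95 and 11.18 in 22Rv1 control, and 12.00, 11.85 and 11.80 in LNCaP overexpression, against 10.74, 10.49 and 10.75 in LNCaP control, so that the small subunits RRM2 and RRM2B moved in opposite directions in both lines. SAMHD1, which breaks down deoxynucleotides, rose by 1.61 ± 0.20 in 22Rv1 and 1.23 ± 0.20 in LNCaP, and TK2, the mitochondrial thymidine kinase, by 0.81 ± 0.12 in 22Rv1 and 0.32 ± 0.12 in LNCaP. The LNCaP call of TK2 was lost without overexpression replicate 1, control replicate 2 or control replicate 3 (adjusted p = 0.0656 to 0.0833). SAMHD1 read 10.78, 10.61 and 10.52 in 22Rv1 overexpression, against 9.06, 8.89 and 9.14 in 22Rv1 control, and 10.07, 11.06 and 10.87 in LNCaP overexpression, against 9.60, 9.23 and 9.49 in LNCaP control.

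Other probe sets of the same members gave a check on the choice of probe set. The 43 genes have 78 single-gene probe sets, 35 of them not used above, and 27 of these passed the filter. In 22Rv1 overexpression 26 of the 27 were called lower and 1 higher, and in LNCaP overexpression 25 were lower and none higher. At the gene level, 24.3% of all genes tested were called lower and 36.5% higher in 22Rv1. In LNCaP the gene-level shares were 28.0% lower and 34.1% higher. The shares over all probe sets are not given here. The exceptions were a probe set of RFC5 outside its main one, at 0.46 in 22Rv1 and -0.06 in LNCaP, and a probe set of POLA2 likewise, at -0.07 in LNCaP. The size of the difference between the lines was less alike over probe sets, as given with that test.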

How the data were processed

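Total RNA of 18 cell line samples was measured on 1-colour arrays. The deposited log2 values were made by the authors with GCRMA, per the submitters' processing notes. No source used here gives its version or says whether the arrays were normalized in 1 run. GCRMA subtracts sequence-dependent background, so low values are compressed, and a change was given as a bound if none of the 3 arrays in the group with less RNA reached a log2 value of 4 (differences between lines keep their fitted values). Of 54675 probe sets, 41091 had 1 gene symbol in the platform annotation, 1801 several and 11721 none, and 62 were controls. Each gene was read from its probe set with the highest mean, and genes over 4 on at least 3 arrays were tested (12159 genes).

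All 18 arrays entered 1 group-means model in limma 3.58.1 (R 4.3.3) with 12 residual degrees of freedom, trended and robust moderation, and Benjamini-Hochberg adjustment over all genes tested in each comparison. The 6 groups shared the estimate of each gene's spread. A gene whose LNCaP overexpression arrays differ widely thus has a large standard error in every comparison. A gene was called at an adjusted p under 0.05. The fit was first tested on simulated data in which 200 genes were changed. Each simulated gene had the same spread in all groups, so that test does not cover a group with wider spread, such as LNCaP overexpression. The number of arrays, 3 a group, limits the precision.

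The members and gene lists were chosen with earlier results of these data known. Values on every array are given for the members with the largest and smallest change of each role in each overexpression comparison, for uncalled members, and for the 3 largest changes each way in ONECUT2 shRNA and between control lines; array values of ORC1, MCM3, RRM2B and SAMHD1 were added after their values were seen. Alternatives were array centring, quantile normalization, no filter and a filter at 6, values raised to 4, the mean of a gene's probe sets, plain moderation, array weights, only the groups compared, a replicate block and leaving out each array. Promoter windows are from RefSeq (GRCh38.p14).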

Additional observations from a re-analysis of the deposited data

Results flagged for a closer look

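The change with overexpression differed between the lines, by an interaction term in limma with adjusted p under 0.05, for 32 of the 43 genes. By the same test 26.6% of all genes tested were called lower and 18.1% higher. The difference given here is the LNCaP log2 change minus the 22Rv1 log2 change. Among licensing genes it was -2.82 for ORC6, -2.02 for CDC6, -0.97 for ORC1, -1.39 for MCM2, -1.10 for MCM3, -1.41 for MCM4, -1.07 for MCM5, -0.83 for MCM6 and -1.27 for MCM7. Among helicase activation genes it was -3.54 for MCM10, -0.70 for CDC45, -1.29 for GINS1 and -1.76 for GINS2. It was -2.14 for POLA1, -1.34 for POLA2 and -0.75 for PRIM1, and among the clamp loaders -2.25 for RFC3, -1.22 for RFC4, -0.52 for RFC5 and -2.60 for DSCC1. RRM2 had the largest, -6.59, with -1.0 for RRM1 and -2.78 for TK1; the other RRM1 probe set gave 1.08, the opposite direction. It was -0.91 for CHAF1A, -0.94 for CHAF1B, -1.07 for UHRF1, -4.13 for DTL and -2.96 for E2F8. The sign was positive, a larger fall in 22Rv1, for LIG1 at 1.36, E2F2 at 0.84, UNG at 0.68 and TYMS at 0.51. With values under 4 raised to 4, CDC45 had a difference of 0.95 and the call for ORC1 was lost, so the values of both rest on readings under 4, and MCM10 had -2.07, E2F8 -2.49 and POLA2 -0.88. Over 27 other probe sets of the 43 genes, 9 (33.3%) were called lower by this test and 2 (7.41%) higher. The gene-level shares over all genes were 26.6% and 18.1%. No other probe set was called lower for MCM5, MCM6, GINS2, POLA2, RFC5, RRM1 or CHAF1A.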

How the results depend on the processing

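In 22Rv1 overexpression 41 to 43 genes were called lower under the alternatives and 42 without any 1 array, and in LNCaP overexpression 40 to 43 and 41 to 43. RRM2 was the gene lost in 22Rv1 without any 1 array. The interaction was called lower for 23 to 28 genes (28 to 30 without 1 array) and higher for 3 to 7, with 7 under array weights. In no comparison did every same-numbered pair correlate over 0.1 (-0.22 to -0.04 in 22Rv1 overexpression, 0.02 to 0.09 in LNCaP overexpression, 0.06 to 0.32 in shRNA against scramble, -0.05 to 0.43 in scramble against control, -0.11 to 0.11 in shRNA against control and 0.06 to 0.14 between control lines), so the numbers were not taken to pair the samples, and with a replicate block 43 genes were lower in each line and 7 higher in shRNA.

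The counts among the remaining 22Rv1 groups moved most. With array weights, whose estimate stopped before convergence, ONECUT2 shRNA against scramble had 5 genes lower and 21 higher, scramble against control 16 and 9, and shRNA against control 2 and 13. With only the groups compared they were 5 and 17, 12 and 7, and 0 and 7. Scramble against control had 1 gene lower with centred arrays, 1 with no filter, and 5 lower and 0 higher with the mean of probe sets; shRNA against control had 2 higher with values raised to 4, 0 with the mean of probe sets and 2 with plain moderation. Without 1 array, the interaction had 3 to 7 genes higher, shRNA against scramble 3 to 6 higher, scramble against control 0 to 1 lower, and shRNA against control 0 to 1 higher. The cause was not tested.

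Over all genes, array weights gave 3760 lower and 3084 higher in shRNA against scramble (1963 and 1630 in the model used), 2519 and 3896 in scramble against control (1143 and 1516) and 1461 and 1955 in shRNA against control (256 and 286). Only the groups compared gave 1859 and 2770, and 914 and 1061, in the last 2 of these, and leaving out 1 array gave as few as 96 and 114 in shRNA against control and 999 higher in scramble against control.

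Some uncalled changes in shRNA against scramble turned sign: ORC6 (0.0099 quantile normalized, 0.0451 with array weights), MCM6 (0.186) and POLA2 (0.0502) with the mean of probe sets, DTL (0.0017 quantile normalized) and E2F1 (-0.0323 with array weights). Without 1 array the range crossed 0 for ORC6 (-0.0600 to 0.0683), POLA1 (-0.0186 to 0.103), LIG1 (-0.0381 to 0.155), CHAF1B (-0.0549 to 0.0940), DTL (-0.0701 to 0.0030) and E2F1 (-0.152 to 0.175). Over the settings, 440 of 447 values of named genes kept their call in 22Rv1 overexpression and 439 of 447 in LNCaP overexpression. In ONECUT2 shRNA against scramble 393 of 447 stayed the same, while 31 were stronger, 7 weaker and 16 turned sign.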
